A study of Mus musculus with 39 samples.

Results

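Parathyroid glands taken at lights on (zeitgeber time, ZT, 0) were compared between Bmal1 knockout mice (KO, 3 samples) and their control littermates (WT, 3 samples). These 6 samples were picked by the genotype and time in their titles, out of 39 in a series that covers 6 times of day. KO mice carried 2 floxed copies of Bmal1 (gene symbol Arntl), with loxP sites around exon 8, and a Cre recombinase driven by the human parathyroid hormone promoter (genotype PTHcre;Bmal1 flox/flox). WT mice had the same floxed alleles and no Cre (Bmal1 flox/flox), so that the deletion, the Cre transgene itself and any strain DNA linked to it cannot be told apart in this contrast. Per the labels, the floxed line is a B6.129S4 stock and the Cre line a 129;FVB stock. All mice were males of 11 weeks, and each sample pooled the glands of 2 of them, so p-values measure the spread between such pools. The other 5 times, ZT4 to ZT20, served as a second look at the same genotypes, in 15 KO and 18 WT libraries that share no sample with ZT0. Their spread also entered the test at ZT0.

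The circadian clock of most cells is a transcriptional loop. BMAL1 pairs with CLOCK or NPAS2 and binds E-box sequences to switch on the Per and Cry genes, whose proteins then repress BMAL1. In a second loop, REV-ERB proteins (Nr1d1, Nr1d2) repress and ROR proteins activate genes with ROR elements, Arntl itself, Cry1, Npas2 and Nfil3 among them, and the D-box factors Dbp, Tef and Hlf, with their repressor Nfil3, carry the rhythm to other genes. In the parathyroid, the endocrine gland that secretes parathyroid hormone to hold blood calcium, clock genes cycle as in other peripheral tissues.

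At lights on, 12 genes differed between KO and WT glands, 0.0643% of the 18661 genes tested. Of these, 8 were higher (0.0429%) and 4 lower (0.0214%) in KO. The clock repressors Cry1 and Cry2 and the D-box factor Tef rose 1.89-fold to 2.21-fold in KO glands. Also higher in KO glands were 2 receptors of extracellular signals, Adra2c (12.8-fold) and S1pr1 (2.20-fold), the vessel growth factor Angpt2 (2.41-fold) and the cell polarity gene Pard6g (1.81-fold). The genes that fell in KO glands were Trim12a, Tnmd, Dpp7 and the long noncoding RNA 1700011M02Rik. All 12 had KO values that did not overlap the WT values, as did 11% of all genes tested. In the libraries of the other 5 times, 11 of the 12 passed the same test in the same direction, beside 5.38% of 18450 genes tested there. Tef was the exception.

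The libraries held 38111766 to 62810566 counts and 18705 to 19820 detected genes. Parathyroid markers were high throughout: Pth, the hormone gene, stood at 146790, 99033 and 93753 CPM (counts scaled to equal library size) in KO libraries, against 130988, 139580 and 110163 CPM in WT libraries. Of the 14 genes of the parathyroid list, none passed the test with edgeR (0 at an unadjusted p under 0.05, 0 with DESeq2). Their median log2 fold change was 0.01, and over all genes tested it was -0.0078. Neighbouring tissue was taken along unevenly. Summed levels of 14 thyroid genes were 7.35, 734 and 28960 CPM in KO libraries, against 7.81, 55000 and 56390 CPM in WT libraries. Fat markers summed to 334, 348 and 202 CPM in KO libraries, against 956, 116 and 118 CPM in WT libraries. WT replicate 1 thus had almost no thyroid, and it had the highest fat signal and 280 CPM of airway markers, against 6.35 to 34.2 CPM in the other 5 libraries. Lymphoid markers were highest in KO replicate 3, at 626 CPM. No gene of the 12 lists of other tissues passed with edgeR or DESeq2, and 0 to 3 genes of a list had an unadjusted p under 0.05. The most were 3 of 9 airway genes and 2 of 10 salivary genes, all lower in KO, where 3.39% of all genes were. The airway median log2 fold change was -4.809 with all 6 libraries and 0.179 without WT replicate 1. In the same order the thyroid median was -1.902 and -2.485, and the fat median -0.543 and 1.909. Leaving out that library thus evened the airway genes but not the thyroid or fat genes. In bulk tissue, fewer cells of a type and less RNA per cell cannot be told apart. The calls were therefore also made without WT replicate 1. That test passed 9 genes, 8 of the 12 among them. S1pr1 (adjusted p = 0.051), Tnmd (0.0673) and 1700011M02Rik (0.0836) were among those lost.

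**Figure D1:**
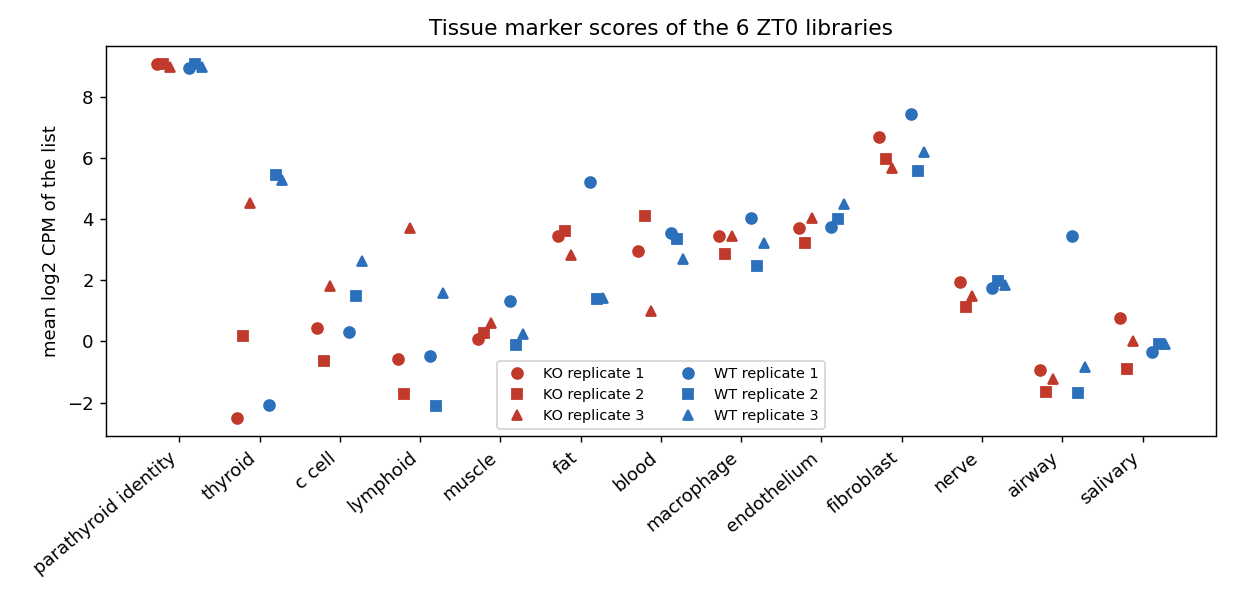
Mean log2 CPM of each tissue's marker list (y axis) in the 3 KO (red) and 3 WT (blue) libraries at ZT0, with a symbol for each replicate. Parathyroid scores lie close together in all 6, while thyroid scores are low in KO replicates 1 and 2 and WT replicate 1, and WT replicate 1 stands highest in fat and airway scores.

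Arntl, the targeted gene, was at 20.0, 25.3 and 31.4 CPM in KO glands, against 39.5, 40.4 and 42.4 CPM in WT glands. Every KO library lay below every WT library. The log2 fold change was -0.67 ± 0.30 (SE), with an unadjusted p of 0.0352 and an adjusted p of 0.826 by edgeR's quasi-likelihood test, so the difference did not pass. ZT0 held the highest WT mean of Arntl, 40.8 CPM. KO means were also below WT means at ZT4, ZT16 and ZT20. At ZT8 the means were 12 CPM in KO and 12.2 CPM in WT glands. At ZT12 the KO mean was the higher, at 10.4 CPM (n = 2) against 3.05 CPM (n = 3). Counts were given per gene and not per exon, and only exon 8 is flanked by loxP sites, so a gene-level count says little about the deletion itself.

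Both cryptochromes, the repressors that act with the PER proteins on BMAL1, rose in KO glands. Cry1 (chr10:85131700-85185054, GRCm38.p6) was at 77.6, 76.7 and 65.0 CPM in KO glands, against 33.0, 29.8 and 36.6 CPM in WT glands. Its log2 fold change was 1.14 ± 0.13 (SE, n = 3 pools a group; edgeR adjusted p = 8.19e-06), with the call kept in each of the 6 fits that left out a library. Cry2 (chr2:92403646-92434085) was at 32.7, 33.6 and 28.4 CPM in KO glands, against 17.1, 14.3 and 18.6 CPM in WT glands. The lowest KO value of Cry2 was well above its highest WT value. On the log2 scale it rose by 0.92 ± 0.16 (edgeR adjusted p = 0.00929), and the call was lost without KO replicate 1 (0.0504), KO replicate 2 (0.0798) or WT replicate 2 (0.134).

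Tef, a transcription factor downstream of the core loop, was higher too. Tef (chr15:81802673-81826863), an activator at D-boxes, was at 130, 118 and 80.0 CPM in KO glands, against 49.5, 39.4 and 60.1 CPM in WT glands. KO replicate 3 lay nearest to the WT range and still above it. The log2 fold change was 1.14 ± 0.16 (edgeR adjusted p = 1.93e-04), and the call held without any of the 6 libraries.

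Adra2c (chr5:35278566-35281763), the alpha-2C receptor for noradrenaline and adrenaline, was at 4.12, 5.16 and 2.71 CPM in KO glands, against 0.262, 0.475 and 0.188 CPM in WT glands. This was the largest rise among the called genes, a log2 fold change of 3.68 ± 0.49 (edgeR adjusted p = 9.30e-05), and it was called in each of the 6 fits that left out a library. At the other times it was 2.89 ± 0.19 (adjusted p = 4.14e-12). S1pr1 (chr3:115710433-115715055), a receptor for the lipid sphingosine-1-phosphate, was at 31.6, 18.4 and 21.3 CPM in KO glands, against 12.6, 8.69 and 11.1 CPM in WT glands. Its log2 fold change was 1.14 ± 0.22 (edgeR adjusted p = 0.0305), and KO replicate 1 stood well above the other KO samples. With the replicate number as a block, S1pr1 had an adjusted p of 0.0546. Its call was also lost without KO replicate 1 (0.402), WT replicate 2 (0.249) or WT replicate 3 (0.184). Its effect at the other times was 1.87 ± 0.13 (adjusted p = 7.61e-12).

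Angpt2 (chr8:18690263-18741562) encodes angiopoietin 2, a secreted ligand of the endothelial receptor TIE2. It was at 38.3, 41.5 and 35.0 CPM in KO glands, against 18.7, 15.1 and 13.8 CPM in WT glands, a log2 fold change of 1.27 ± 0.23 (edgeR adjusted p = 0.0127). The gap between the groups was wider than the range within either. Endothelial markers summed to 188, 131 and 249 CPM in KO glands, against 196, 251 and 342 CPM in WT glands. Of the 12 markers 1 had a positive log2 fold change (48.3% of all genes). None passed the test, with 0 at an unadjusted p under 0.05 and 0 by DESeq2. Pard6g (chr18:80046830-80119640), of the PAR6 family of cell polarity proteins, was at 115, 97.6 and 83.9 CPM in KO glands, against 54.6, 58.5 and 50.8 CPM in WT glands. The rise was 0.85 ± 0.14 on the log2 scale (edgeR adjusted p = 0.00422). Without KO replicate 1 or WT replicate 3 the adjusted p of Pard6g was 0.0542 and 0.0614, and that of Angpt2 was 0.0542 and 0.184. Without KO replicate 2 or WT replicate 2 Angpt2 had 0.0851 and 0.122.

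Among the falls, Trim12a (chr7:104299893-104315558), of the tripartite motif family, had no count in any KO library and 380, 188 and 470 counts in WT libraries. Against a floor of 3 counts over the KO group, it was at least 395-fold lower in KO glands (edgeR adjusted p = 4.62e-08). KO glands at the other 5 times had means of 0 to 0.00723 CPM, against 3.58 to 5.61 CPM in WT glands. Trim12a has near-identical relatives beside it on chromosome 7, so the counting may split reads between them. Tnmd (chrX:133851008-133865577), tenomodulin, a membrane protein known from tendon, was at 802, 710 and 755 CPM in KO glands, against 1453, 1652 and 1811 CPM in WT glands. Its log2 fold change was -1.12 ± 0.23 (edgeR adjusted p = 0.0427). Tnmd had the largest adjusted p of the 12. Leaving out any of the 6 libraries raised its adjusted p above 0.05, and so did 4 tissue scores as covariates (0.0556) and a replicate block within ZT0 (0.0652). At the other times, however, its log2 fold change was -1.03 ± 0.10 (adjusted p = 2.54e-08).

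Dpp7 (chr2:25352290-25356389), a dipeptidyl peptidase of intracellular vesicles, was at 11.6, 8.75 and 10.7 CPM in KO glands, against 20.0, 18.6 and 22.3 CPM in WT glands. It fell by 0.97 ± 0.18 on the log2 scale (edgeR adjusted p = 0.0127). The call was lost without KO replicate 1 (0.0504), KO replicate 2 (0.211), KO replicate 3 (0.0573) or WT replicate 3 (0.13). The noncoding 1700011M02Rik (chrX:102908905-102909651) was at 1.64, 1.42 and 1.19 CPM in KO glands, against 5.29, 3.14 and 6.05 CPM in WT glands. It fell by 1.77 ± 0.34 on the log2 scale (edgeR adjusted p = 0.0225). It lies outside the rule for named genes and is given because the list of calls is short. It was called in 1 of the 6 fits that left out a library.

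**Figure D2:**
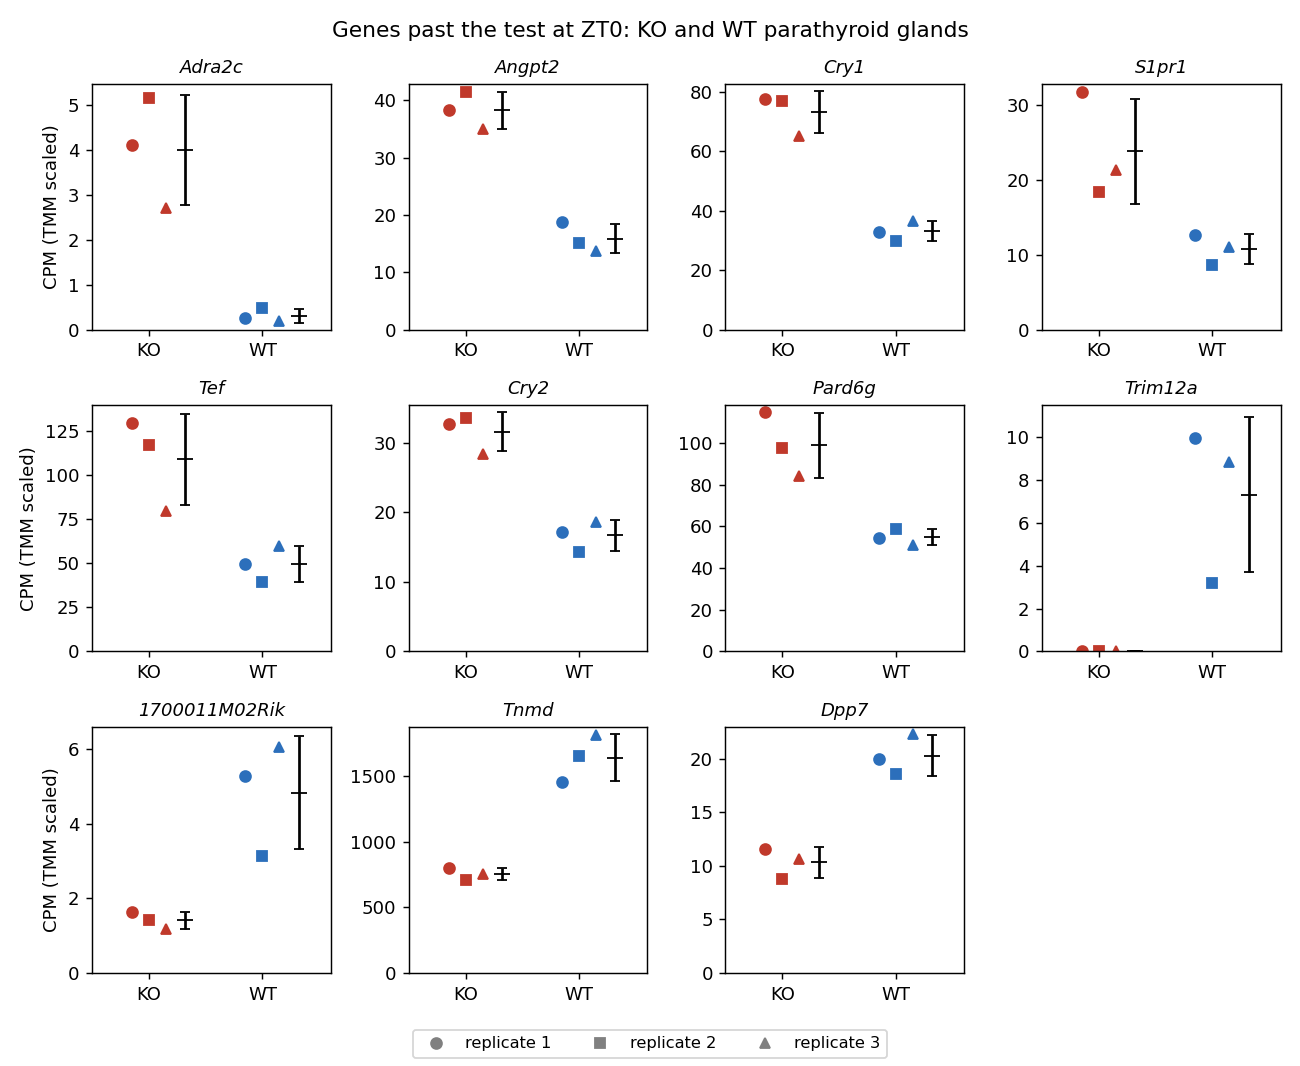
CPM (y axis, from 0) of 11 of the 12 genes past the test at ZT0 in each KO (red) and WT (blue) library, with the mean and SD beside each group and a symbol for each replicate. In every panel the KO and WT points form separate ranges, and Trim12a is at 0 in all 3 KO libraries.

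With 4 tissue scores (thyroid, lymphoid, muscle and fat) as covariates over all 39 libraries, 19 genes passed, and of the 12 only Tnmd did not. The precision is limited by 3 pools a group. On simulated counts, the ZT0 test recovered 14.9% of log2 changes of 0.5, 50.7% of 1 and 72.7% of 2. The simulation passed 94 genes, against 12 here. More calls ease the adjusted threshold, so these shares may be too high for the real comparison. An exact permutation test of 3 against 3 cannot go below p = 0.1, so the calls draw on the spread shared over all 39 libraries. On the 6 libraries alone edgeR passed 0 of 16661 genes, with 945 at an unadjusted p under 0.05, and DESeq2 passed 190. DESeq2 on all 39 libraries passed 52 genes (0.279%), including all 12.

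The promoter windows of 4 of these genes are shown because they hold the E-box that BMAL1 is known to bind. RefSeq gave a window, 250 bases before to 50 bases after an annotated start (GRCm38.p6), for 7 of the 12 genes. Each window was searched on both strands for the E-box CACGTG, the letters AGGTCA and the D-boxes TTATGTAA and TTACGTAA. AGGTCA is only the core of a ROR element, and the bases beside it were not searched. Capitals mark matches, and each sequence runs 5′ to 3′ along the gene's own strand.
Cry1, chr10:85185005-85185304, minus strand: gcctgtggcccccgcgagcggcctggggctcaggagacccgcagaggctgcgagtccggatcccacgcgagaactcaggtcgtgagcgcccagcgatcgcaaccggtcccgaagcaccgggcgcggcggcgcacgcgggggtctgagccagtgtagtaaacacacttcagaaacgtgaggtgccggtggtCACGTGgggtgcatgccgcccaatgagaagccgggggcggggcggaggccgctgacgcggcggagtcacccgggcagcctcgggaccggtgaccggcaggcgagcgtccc
Adra2c, chr5:35278316-35278615, plus strand: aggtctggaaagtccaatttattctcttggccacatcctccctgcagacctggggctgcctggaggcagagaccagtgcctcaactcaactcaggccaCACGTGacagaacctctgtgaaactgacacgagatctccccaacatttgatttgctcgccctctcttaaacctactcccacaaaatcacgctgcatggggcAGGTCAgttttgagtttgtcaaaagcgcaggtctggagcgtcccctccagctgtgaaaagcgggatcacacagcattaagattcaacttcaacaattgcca
Tef first start, chr15:81802423-81802722, plus strand: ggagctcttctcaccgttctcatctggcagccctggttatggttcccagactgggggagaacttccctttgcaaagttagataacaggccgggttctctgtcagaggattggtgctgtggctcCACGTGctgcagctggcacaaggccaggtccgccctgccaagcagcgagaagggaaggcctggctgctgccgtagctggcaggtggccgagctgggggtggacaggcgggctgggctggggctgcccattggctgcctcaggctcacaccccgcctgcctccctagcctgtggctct
Tef second start, chr15:81811164-81811463, plus strand: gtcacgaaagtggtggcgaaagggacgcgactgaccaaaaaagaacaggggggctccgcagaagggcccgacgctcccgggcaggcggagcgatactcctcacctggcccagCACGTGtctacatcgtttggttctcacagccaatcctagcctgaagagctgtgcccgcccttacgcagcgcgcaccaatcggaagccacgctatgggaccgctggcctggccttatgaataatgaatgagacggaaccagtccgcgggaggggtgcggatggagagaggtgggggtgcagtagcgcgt
Dpp7, chr2:25356283-25356582, minus strand: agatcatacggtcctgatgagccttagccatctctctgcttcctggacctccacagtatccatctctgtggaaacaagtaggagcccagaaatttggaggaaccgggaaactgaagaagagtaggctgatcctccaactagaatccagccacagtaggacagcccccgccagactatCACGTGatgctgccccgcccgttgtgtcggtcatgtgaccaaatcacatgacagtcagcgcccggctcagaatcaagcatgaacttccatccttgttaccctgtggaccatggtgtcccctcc

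The E-box begins 60 bases before the start of Cry1, 152 before that of Adra2c, 73 before that of Dpp7, and 127 and 138 before the 2 starts of Tef. The Adra2c window also holds AGGTCA, read on one of the strands, from 51 bases before its start. Windows of Trim12a, Cry2 and Tnmd hold none of the motifs. Thus 4 of the 7 genes hold an E-box, where 10.7% of 13607 tested genes with a window do, 15.6% hold AGGTCA and 0.955% a D-box. The genes with an E-box rose in KO glands in the case of Cry1, Adra2c and Tef and fell in that of Dpp7. Windows of the clock genes Per1, Bhlhe41 and Ciart hold an E-box too, and those of Per3, Nr1d1, Nr1d2, Dbp and Hlf do not. None of these clock genes was called. A match of letters is not a bound site, and the windows leave out more distant elements.

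Over the clock genes as a whole, the picture at lights on was mixed. The 12 genes of the E-box list (Per1, Per2, Per3, Cry2, Nr1d1, Nr1d2, Dbp, Tef, Hlf, Bhlhe40, Bhlhe41, Ciart) gave 2 rises, Tef and Cry2, and no fall by edgeR. At an unadjusted p under 0.05, 5 were higher and 0 lower in KO, where 2.28% and 3.39% of all genes were, 5.67% in either direction. DESeq2 passed 3 as higher and 0 as lower, beside 0.279% of all genes in either direction. In 6 genes all KO values lay above all WT values and in 3 below, where 5.45% and 5.59% of all genes do so. The median log2 fold change was 0.218, and 0.448 without WT replicate 1. The 8 genes of the list with ROR elements and the positive arm (Arntl, Arntl2, Clock, Npas2, Cry1, Nfil3 and Rora among them) gave 2 rises, including Cry1, and no fall, with a median of 0.382. At an unadjusted p under 0.05, 3 were higher and 1, Arntl, was lower. In the libraries of the other 5 times, where 2.69% of genes rose and 2.69% fell, the E-box list gave 2 rises and 1 fall, and the ROR list 5 rises.

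The period gene Per2, a partner of the cryptochromes, was at 39.7, 63.1 and 39.7 CPM in KO glands, against 25.4, 15.0 and 20.2 CPM in WT glands. Its ranges did not overlap, but KO replicate 2 stood far above the other KO samples. The log2 fold change of 1.24 ± 0.29 did not pass with edgeR (adjusted p = 0.131), and it passed with DESeq2 (adjusted p = 0.00679). Per1 was at 28.3, 70.3 and 56.1 CPM in KO glands, against 41.3, 43.3 and 55.0 CPM in WT glands, so its ranges overlapped. Per3 was at 7.23, 7.94 and 7.17 CPM in KO glands, against 6.84, 5.06 and 6.43 CPM in WT glands, with an adjusted p of 0.995.

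The E-box repressor Bhlhe41 (DEC2) was at 14.3, 9.20 and 9.05 CPM in KO glands, against 6.31, 5.31 and 5.90 CPM in WT glands, without overlap (log2 fold change 0.89 ± 0.24, edgeR adjusted p = 0.241). Its relative Bhlhe40 (DEC1) was at 5.42, 4.87 and 7.81 CPM in KO glands, against 6.08, 5.82 and 6.28 CPM in WT glands, and its log2 fold change was near 0. Dbp, the D-box activator, was at 13.7, 11.1 and 10.8 CPM in KO glands, against 7.12, 7.08 and 8.37 CPM in WT glands (0.66 ± 0.29, edgeR adjusted p = 0.798). Dbp is thus on the higher side in KO at this hour without passing the test. Its relative Hlf was low and on the other side, at 1.22, 0.955 and 1.41 CPM in KO glands, against 2.46, 1.56 and 2.63 CPM in WT glands (-0.89 ± 0.45, edgeR adjusted p = 0.908).

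Both REV-ERB genes lay lower in KO glands without overlap, and neither passed. Nr1d1 was at 5.76, 5.33 and 5.96 CPM in KO glands, against 7.68, 9.39 and 6.96 CPM in WT glands (-0.49 ± 0.26, edgeR adjusted p = 0.932). Nr1d2 was at 22.4, 26.2 and 27.0 CPM in KO glands, against 33.8, 41.9 and 34.8 CPM in WT glands (-0.55 ± 0.30, edgeR adjusted p = 0.951), and fell at the other times (-0.91 ± 0.15, adjusted p = 3.25e-04). Npas2, the other partner of BMAL1, was at 15.8, 17.1 and 12.4 CPM in KO glands, against 5.13, 6.99 and 7.18 CPM in WT glands. Its log2 fold change was 1.23 ± 0.44 at ZT0 (edgeR adjusted p = 0.62) and 3.18 ± 0.25 at the other times (adjusted p = 6.57e-10). Nfil3, the D-box repressor, was at 8.82, 8.40 and 7.61 CPM in KO glands, against 8.02, 5.52 and 4.94 CPM in WT glands, with a log2 fold change of 0.43 ± 0.31 at ZT0 and 1.39 ± 0.22 at the other times (adjusted p = 9.43e-05). Clock itself was at 127, 146 and 129 CPM in KO glands, against 135, 144 and 130 CPM in WT glands, with overlapping ranges.

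**Figure D3:**
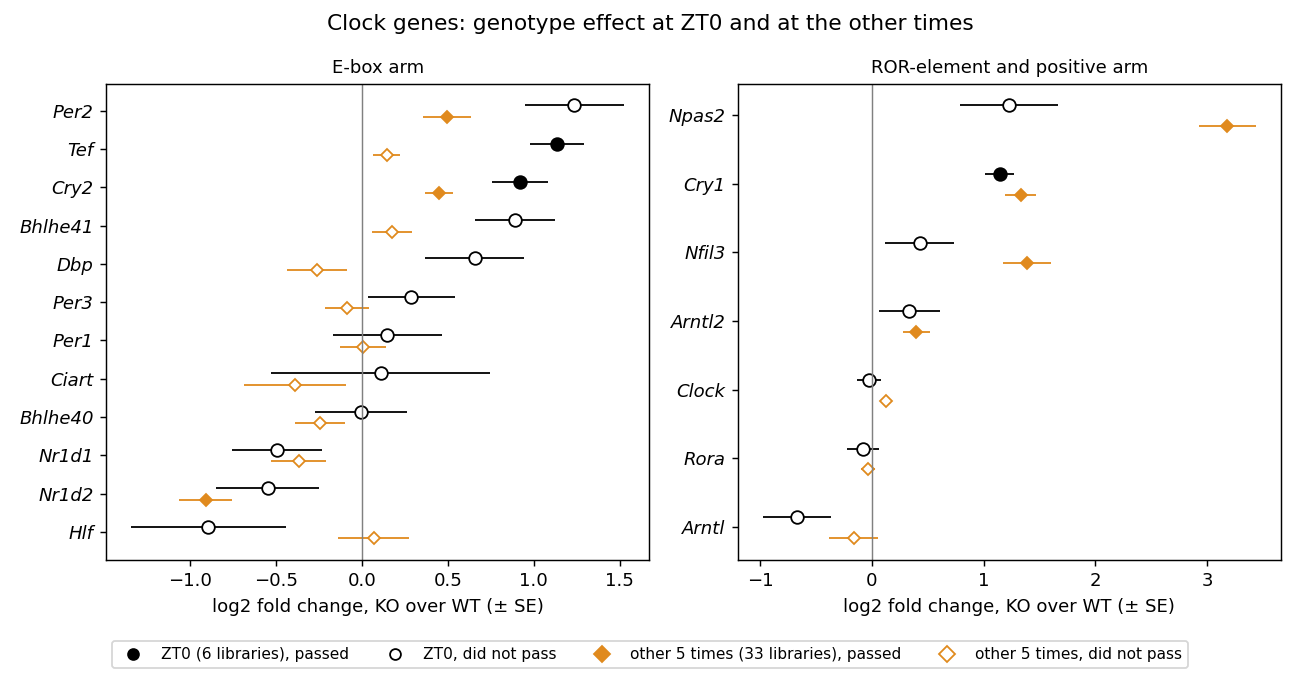
Log2 fold change of KO over WT (x axis, ± SE) of clock genes at ZT0 (circles, 6 libraries) and in the libraries of the other 5 times (diamonds, 33 libraries), filled where the adjusted p is under 0.05. Tef, Cry2 and Cry1 are filled at ZT0. Npas2 and Nfil3 have larger values at the other times.

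Whether the genotype effect at lights on differed from the mean effect at the other 5 times was tested for every gene in the same fit. With edgeR 1 gene passed, Tef (0.00536% of 18661), and 436 had an unadjusted p under 0.05 (2.34%). DESeq2 passed 7 (0.0375%), Tef and Npas2 among them. For Cxcl15, Iqca, Upk1b and Bpifa1, also among the 7, the WT level at ZT0 came almost wholly from WT replicate 1. Bpifa1, for example, was at 77.0 CPM there, against 0.373 and 0.301 CPM in the other WT libraries. At the other times the log2 fold change of Tef was 0.14 ± 0.08 (adjusted p = 0.314), and the difference was 1.04 ± 0.17 (edgeR adjusted p = 0.0173). With the replicate number as a block the difference was 1.03 with an adjusted p of 0.0692, and it did not pass. It was also lost without KO replicate 1 (0.56), KO replicate 2 (0.19), WT replicate 1 (0.159) or WT replicate 2 (0.482), with values of 0.895 to 1.22 over the 6 fits that left out a library.

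In KO glands Tef averaged 109 ± 26.0 CPM at ZT0 (n = 3), 129 ± 2.81 at ZT4 (n = 3), 149 ± 4.52 at ZT8 (n = 3), 195 ± 38.4 at ZT12 (n = 2), 164 ± 15.6 at ZT16 (n = 3) and 129 ± 11.8 at ZT20 (SD, n = 4). In WT glands it averaged 49.7 ± 10.4 CPM at ZT0 (SD, n = 3), 88.6 ± 12.1 at ZT4 (n = 4), 175 ± 27.4 at ZT8 (n = 2), 238 ± 18.3 at ZT12 (n = 3), 126 ± 18.4 at ZT16 (n = 5) and 124 ± 13.7 at ZT20 (n = 4). Lights on was the time of the lowest WT mean, and the KO mean was above the WT mean at ZT0, ZT4, ZT16 and ZT20 and below it at ZT8 and ZT12. Dbp, from the same D-box family, had 11.9 ± 1.55 CPM in KO glands and 7.52 ± 0.730 CPM in WT glands at ZT0, its lowest mean in either genotype. At ZT12 it had 62.9 ± 23.5 CPM in KO glands (n = 2) and 125 ± 6.57 CPM in WT glands (n = 3). Its difference between ZT0 and the other times was 1.05 ± 0.31, with an unadjusted p of 0.00217 and an adjusted p of 1.00 by edgeR.

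Npas2 and Cry1 had KO values above the WT values at every time. Npas2 averaged 15.1 ± 2.45 CPM in KO glands and 6.44 ± 1.13 CPM in WT glands at ZT0. At ZT12 it averaged 9.61 ± 4.74 CPM in KO glands (n = 2) and 0.379 ± 0.243 CPM in WT glands (n = 3). ZT0 held the highest WT mean of Npas2. Its difference, -2.05 ± 0.49, had an unadjusted p of 1.94e-04 and an adjusted p of 1.00 with edgeR, and an adjusted p of 0.0339 with DESeq2. KO means of Cry1 lay between 67.4 and 81.0 CPM over the 6 times, against WT means between 15.2 CPM at ZT8 and 48.3 CPM at ZT16. The Cry1 difference between ZT0 and the other times was -0.29 ± 0.14 (unadjusted p = 0.0532).

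**Figure D4:**
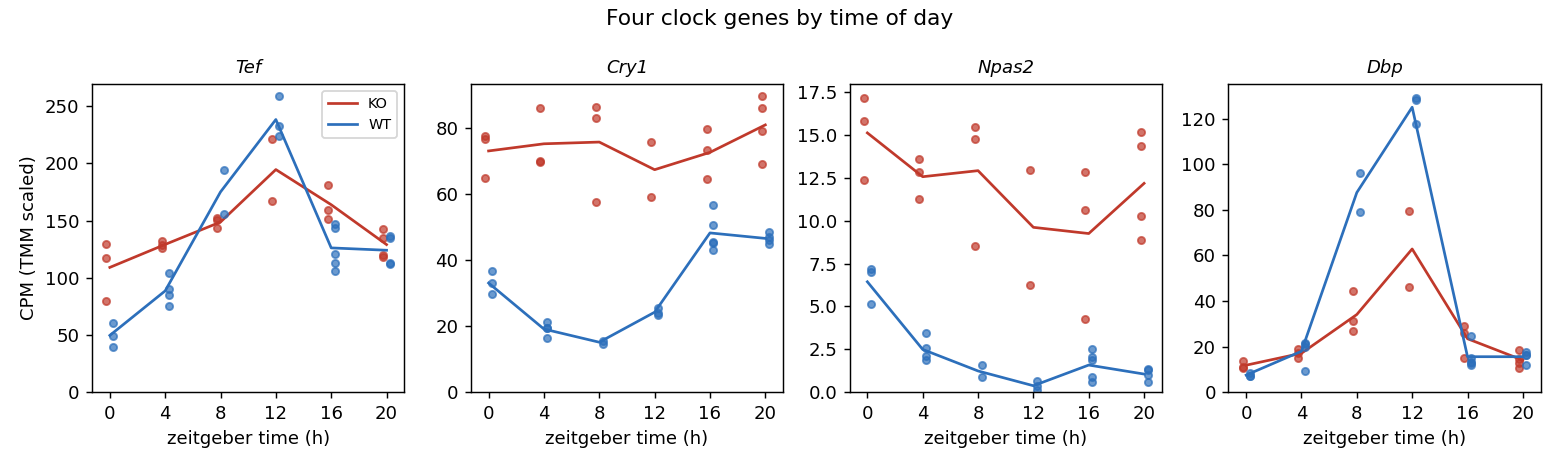
CPM (y axis, from 0) of Tef, Cry1, Npas2 and Dbp by zeitgeber time in hours, with a point for each library and lines through the means of KO (red) and WT (blue) glands. Tef and Dbp have their lowest WT means at ZT0, where the KO means are higher, while Npas2 has its highest WT mean at ZT0.

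Among 17 genes of sterol and fatty acid synthesis, the sterol-responsive transcription factor Srebf2 stood apart in level without passing edgeR's test. Srebf2 was at 87.8, 93.9 and 79.8 CPM in KO glands, against 58.9, 61.1 and 59.4 CPM in WT glands (0.54 ± 0.13, edgeR adjusted p = 0.152, DESeq2 adjusted p = 0.0316). Its ranges did not overlap. In all, 8 of the 17 had a positive value (48.3% of all genes). With edgeR 0 of the 17 passed and with DESeq2 2 (0.0643% and 0.279% of all genes). At an unadjusted p under 0.05, 4 of the 17 were higher and 0 lower (2.28% and 3.39% of all genes). The median of the 17 was -0.006 with all 6 libraries and 0.367 without WT replicate 1. That library had the highest fat markers, and its part in this was not tested further.

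Relatives of the called receptors were also measured. Of 9 genes of sphingosine-1-phosphate signalling, only S1pr1 passed at ZT0. In this list 8 had a positive log2 fold change (48.3% of all genes), and 7 without WT replicate 1. S1pr5, another receptor of the lipid, was at 2.56, 3.06 and 2.45 CPM in KO glands, against 0.576, 1.02 and 0.338 CPM in WT glands (2.05 ± 0.66, edgeR adjusted p = 0.514), and it rose at the other times (2.01 ± 0.28, adjusted p = 1.66e-05). S1pr2 was at 38.6, 34.4 and 28.4 CPM in KO glands, against 21.8, 24.3 and 29.0 CPM in WT glands, overlapping narrowly. Of 9 adrenergic receptors, Adra2c alone passed, with 2 of the 9 positive (48.3% of all genes) and a median of -0.282. Without WT replicate 1, 6 of the 9 were positive, with a median of 0.677.

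Single genes of other lists had values at ZT0 that did not pass there and did in the other libraries. Gcnt4, a glycosyltransferase of O-glycans, was at 16.6, 4.74 and 17.8 CPM in KO glands, against 2.72, 3.85 and 2.82 CPM in WT glands (2.05 ± 0.89, edgeR adjusted p = 0.798; other times 2.13 ± 0.39, adjusted p = 7.95e-04). Fbln5, an elastic fibre protein, was at 71.9, 84.3 and 39.7 CPM in KO glands, against 41.6, 32.2 and 18.1 CPM in WT glands (1.09 ± 0.30, edgeR adjusted p = 0.346; other times 0.93 ± 0.11, adjusted p = 1.06e-06). Galntl6, of the enzymes that start O-glycans, was at 1.09, 2.04 and 3.89 CPM in KO glands, against 4.66, 3.16 and 16.2 CPM in WT glands (-1.77 ± 0.71, edgeR adjusted p = 0.753; other times -1.99 ± 0.30, adjusted p = 6.96e-05). Its value at ZT0 rests largely on WT replicate 3, and was -0.74 without it. Of these, only Gcnt4 had ranges that did not overlap at ZT0.

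Genes that define the hormone-secreting cell did not pass at ZT0, as given above. Vdr, the vitamin D receptor, was at 576, 718 and 598 CPM in KO glands, against 394, 588 and 500 CPM in WT glands (0.35 ± 0.20, edgeR adjusted p = 0.96), and its log2 fold change was 0.21 without WT replicate 1. Pax9, a transcription factor of the pharyngeal pouches, was at 147, 162 and 125 CPM in KO glands, against 117, 123 and 124 CPM in WT glands, just without overlap (0.25 ± 0.13, adjusted p = 0.927). Of 21 granule and prohormone genes, 0 passed with edgeR or DESeq2, 0 were higher and 4 lower at an unadjusted p under 0.05 (2.28% and 3.39% of all genes), and 5 had a positive value (48.3% of all genes), with a median of -0.201. The secretory GTPase Rab27b was among them, at 11.5, 9.74 and 13.2 CPM in KO glands, against 15.5, 20.9 and 21.7 CPM in WT glands (-0.76 ± 0.23, edgeR adjusted p = 0.458).

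The lists of oxidative phosphorylation, protein folding and proliferation held no gene past the test with edgeR or DESeq2. Of 41 nuclear genes of oxidative phosphorylation, 3 had a positive log2 fold change, where 48.3% of all genes did. In 4 of them KO values lay below WT values without overlap (5.59% of all genes), and 1 was lower at an unadjusted p under 0.05 (3.39% of all genes). Their median was -0.094, and -0.151 without WT replicate 1. At the other times 12 of the 41 fell and 0 rose, where 2.69% of genes fell. Ndufs5, a complex I subunit not on the list, passed DESeq2 at ZT0 as lower (-0.70, DESeq2 adjusted p = 0.0483, edgeR adjusted p = 0.202). Ndufa1, a subunit of complex I, was at 71.9, 63.4 and 70.1 CPM in KO glands, against 72.1, 89.4 and 93.6 CPM in WT glands (-0.31 ± 0.15, edgeR adjusted p = 0.855). Of 21 genes of protein folding in the endoplasmic reticulum, 3 were positive and 2 were lower at an unadjusted p under 0.05, where 3.39% of all genes were. The median was -0.146, and -0.297 without WT replicate 1, with Sdf2l1 at 40.1, 38.0 and 54.0 CPM in KO glands, against 39.8, 81.9 and 64.2 CPM in WT glands. At the other times 6 of these 21 fell and 0 rose. Of 31 proliferation genes, 26 were positive (48.3% of all genes) and 0 had an unadjusted p under 0.05 (median 0.201). The median of that list was -0.369 at the other times.

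Among stress and output genes, Fkbp5, a glucocorticoid-induced cochaperone, was at 21.6, 18.3 and 24.4 CPM in KO glands, against 39.4, 34.4 and 27.0 CPM in WT glands (-0.65 ± 0.36, edgeR adjusted p = 0.952). The small heat shock protein gene Hspb1 was at 32.3, 33.4 and 29.1 CPM in KO glands, against 44.9, 39.1 and 39.4 CPM in WT glands (-0.38 ± 0.14, adjusted p = 0.675), and fell at the other times (-0.33 ± 0.07, adjusted p = 0.00161). Both had separate ranges at ZT0. Of 11 kinases, ligases and other proteins that act on clock proteins, 0 had an unadjusted p under 0.05, and their log2 fold changes lay between -0.133 and 0.168. Of 11 clock output genes 1 did, Ypel2, at 52.9, 65.8 and 53.7 CPM in KO glands, against 50.2, 46.8 and 43.2 CPM in WT glands (0.30 ± 0.12, edgeR adjusted p = 0.757).

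Set beside the libraries of the other times, the genotype effects at lights on had mostly the same sign. Of the 1033 genes with an unadjusted p under 0.05 at ZT0 that were tested in both, 87.3% had the same sign at the other times and 29.4% passed there in that direction. Of the 17417 other genes, 62.9% had the same sign and 3.37% passed in that direction. Of the 992 genes that passed at the other times, 89.8% had the same sign at ZT0. The 2 comparisons take their effects from different libraries. The p-values at ZT0, however, draw on a spread that all 39 libraries set, so passing in both is not fully independent.

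**Figure D5:**
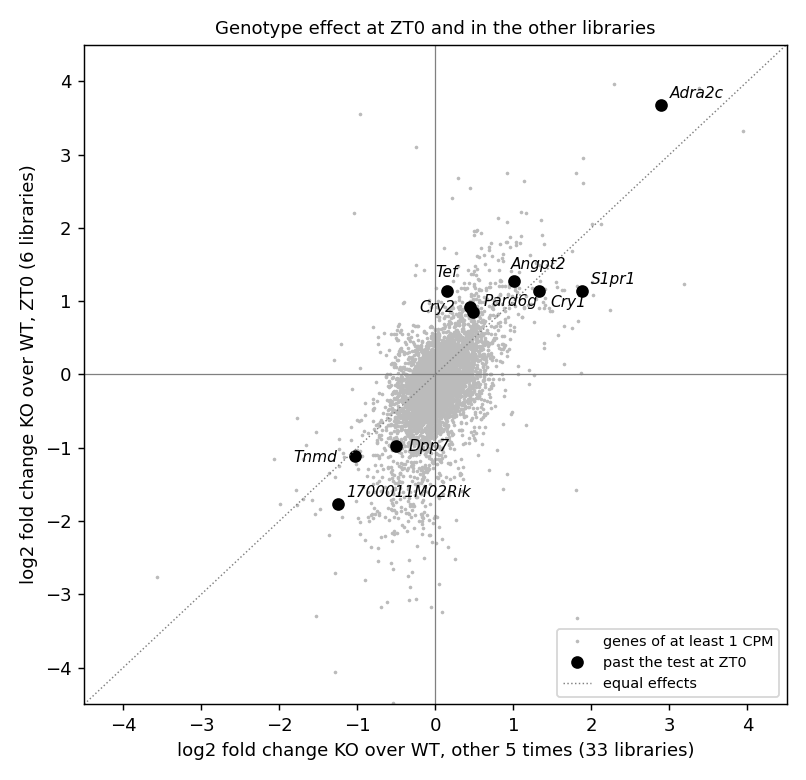
Log2 fold change of KO over WT at ZT0 (y axis, 6 libraries) against the other 5 times (x axis, 33 libraries) for genes with a mean of at least 1 CPM at ZT0, with genes past the test at ZT0 and described in the text in black and a dotted line of equal effects. Tef lies near 0 on the x axis and above 1 on the y axis, and 25 genes, Trim12a among them, lie beyond the axes.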

How the data were processed

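Total RNA of pooled mouse parathyroid glands was sequenced from a stranded library kit, per the labels' protocols. The files deposited hold raw counts by gene for each library. Build mm10 and the tools featureCounts 2.0.1, STAR 2.7.8a and DESeq2 1.30.1 are listed without their roles, per the submitters' processing notes. Which gene annotation was counted, and whether strand was used, is not given in the sources used here. Reads of genes that overlap on opposite strands may therefore be shared. An even number made up 89.6% of the counts of 1 to 10, so each fragment may have been counted by both its reads, and the depth in fragments may be lower. Of 27179 gene IDs, 25275 with 98% of the counts matched the RefSeq table of GRCm38.p6, used for symbols and positions.

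Counts were fitted with edgeR 4.0.16 in R 4.3.3 (robust quasi-likelihood, TMM scaling, filterByExpr) over all 39 libraries in 12 group means, so that the spread is shared. Tested were KO against WT at ZT0, the ZT0 effect against the mean effect at the other 5 times, and, in a separate fit of the other 33 libraries with time as a factor, KO against WT there. p-values were adjusted by Benjamini-Hochberg over all genes tested, with a threshold of 0.05. The SE given with a log2 fold change is its absolute value over the square root of the F statistic of that test. It thus rests on the spread of the whole fit. Levels are CPM with TMM scaling. Tissue scores are means of log2 CPM with a prior count of 2. For 3 libraries titled ZT16 another label gives ZT20; they were kept by title.

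Named were the clock genes, protein-coding genes that passed at ZT0 with a mean of at least 1 CPM and separate ranges, the gene whose effect differed, and at most the 3 genes with the lowest p in each other list, of which the text gives some. Results of 3 genes are not reported here. The 36 gene lists held 576 entries, of which 573 matched. The members and lists were chosen with earlier results of these data known. In simulated counts of 18344 genes, 2 of 94 calls at ZT0 were false, and 3 of 88 calls of a different effect were. Genes varied independently there.

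Samples of one replicate number deviated together from their group means: r over 13984 genes was 0.459, 0.255 and 0.585 for numbers 1 to 3, and -0.404 to 0.034 for unlike numbers. Deviations within a group sum to 0, so higher values for like numbers in part force lower ones for unlike numbers. In both genotypes thyroid markers were lowest in number 1 and lymphoid markers highest in number 3. The part of tissue content in these values was not tested. The number was therefore also fitted as a block. Pairs of replicates differed by a chi-square of 49.0 to 262 per gene, so none was a copy. Alternatives were DESeq2 1.42.0, its size factors, 2 low-count filters, the 6 libraries alone, the replicate block, 4 tissue scores, halved counts, and leaving out the libraries of unclear time or each ZT0 library. Chosen after seeing the data were DESeq2 on the 6 libraries, fits without WT replicate 1 and a block within ZT0.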

Additional observations from a re-analysis of the deposited data

Results flagged for a closer look

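Tef was flagged because its genotype effect at ZT0 differed from that at the other 5 times by a test of the difference itself. The log2 fold change of KO over WT was 1.04 larger at ZT0 than the mean over the other times (edgeR adjusted p = 0.0173, SE 0.17). All 3 KO libraries were above all 3 WT libraries at ZT0. With the replicate number as a block the adjusted p was 0.0692, and it was 0.159 to 0.56 without KO replicate 1, KO replicate 2, WT replicate 1 or WT replicate 2.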

How the results depend on the processing

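At ZT0 12 genes passed. DESeq2 passed 52, edgeR on the 6 libraries alone 0, 4 tissue scores as covariates 19, and leaving out a library 4 to 13 (fewest without KO replicate 1). Without KO replicate 2 and without WT replicate 3 it was 6 each, and 9 without WT replicate 1. Among alternatives chosen after seeing the data, DESeq2 passed 190 on the 6 libraries and 70 without WT replicate 1, and edgeR passed 0 on the 6 libraries without WT replicate 1. The replicate block passed 10, and among the genes reported here it changed no other call than those given for S1pr1 and the Tef difference. Fits without WT replicate 1 of the 6 alone rest on 2 WT libraries. The difference from the other times passed 1 gene, 7 with DESeq2, 0 with the replicate block and 0 to 1 with a library left out. At the other times 992 passed, 1628 with tissue scores and 1462 with DESeq2.

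Of 59 genes given under each setting, 16 of their values changed sign, all in 5 genes whose ranges overlap. Bhlhe40 was 0.003 without a filter and with halved counts, 0.001 at 1 CPM, 0.06 with tissue scores, 0.005 without the libraries of unclear time, 0.01 with DESeq2 without WT replicate 1, and with a library left out -0.228 to 0.129. Clock was 0.022 with tissue scores and -0.091 to 0.016 with a library left out. With a library left out Rora ranged over -0.113 to 0.002, Per1 over -0.139 to 0.446 and Ciart over -0.188 to 0.521. The cause was not tested. With counts halved, 14 genes passed at ZT0, all 12 among them.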

Other observations

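The 52 genes that DESeq2 passed at ZT0 held 46 with separate ranges, and 40 passed edgeR's test in the same direction in the libraries of the other times. For 4 of them, Cxcl15, Iqca, Upk1b and Tcte1, the WT level came from WT replicate 1 alone, with under 0.2 CPM in the other WT libraries. Of the 52, 5 were at 0 in every KO library.

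By position, 7 of the 52 lay on chromosome 15, which holds 3.89% of the genes tested. They were Apol7c, D730005E14Rik, Apobec3, Cbx7, Tef, Srebf2 and Cyp2d22, within chr15:77524852-82380260. Of the 122 genes tested in that span, 13.9% had an unadjusted p under 0.05 at ZT0, against 5.67% of all genes, and 9.84% passed at the other times, against 5.38% of all. Apobec3, a cytidine deaminase of antiviral defence, had a DESeq2 log2 fold change of 1.89 at ZT0 (adjusted p = 0.00153), and Cbx7, a Polycomb subunit, one of 0.61 (0.00392). A second group lay on chromosome 7 beside Trim12a, where Trim5, Trim34b and Trim30d also passed DESeq2, within chr7:104263386-104507853. Trim5 had a DESeq2 log2 fold change of -3.33 and Trim30d of -4.66, while Trim34b had 1.77. Of the 9 genes tested there, 7 had an unadjusted p under 0.05 at ZT0 and 6 passed at the other times. Both spans were chosen after seeing these values and have no test. Members of the Trim family may share reads. Here too the deletion, the Cre transgene and strain DNA linked to it cannot be told apart.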
